A study of Mus musculus with 23 samples.

Results

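The genes described here encode the enzymes inside lysosomes and the proteins of the lysosomal membrane. A list of 42 mouse genes was used, made of 11 proteases, 11 glycosidases, 4 sulfatases, 6 hydrolases of lipids and phosphate esters, 3 soluble cofactors and carriers and 7 membrane proteins. Each gene was represented by the brightest probe set that carries its symbol alone, and 40 of the 42 genes had such a probe set, out of 30176 genes on the array. The protease Ctsd (cathepsin D) and the glycosidase Glb1 (beta-galactosidase) lie only on probe sets shared with Ifitm10 and with Tmppe, so they were not analysed here. Of the 40 genes, 39 lay above the background probes on all 23 arrays, and Neu1 (neuraminidase) did so on 17 of 23. The list was to be split into genes whose signal follows that of Cd68, a lysosomal membrane glycoprotein used as a macrophage marker, and genes whose signal does not.

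RNA came from the aorta of male ApoE-/- mice of the C57BL/6J strain, and all mice, controls included, lacked ApoE and ate high-fat feed. Chronic intermittent hypoxia (CIH), repeated short drops of inspired oxygen timed to the mice's sleep, stands in for obstructive sleep apnea. The 5 groups were normoxia for 8 weeks (Nor 8W, n = 5), CIH for 8 weeks (CIH 8W, n = 5), normoxia for 12 weeks (Nor 12W, n = 5), CIH for 12 weeks (CIH 12W, n = 4), and 8 weeks of CIH with 4 further weeks in normoxia (CIH 8W + Nor 4W, n = 4). Mice were bought at 8 weeks of age, and RNA was taken from the aorta without separating its cells, so each value is a mixture of cell types. The labels call the arrays of a group biological replicates, and each array was taken as 1 mouse.

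Lysosomes are acid organelles in which cathepsins cut proteins, glycosidases and sulfatases take apart sugar chains, and lipases free cholesterol and fatty acids from lipoproteins that the cell has taken up. Most soluble enzymes reach them by a mannose 6-phosphate tag. Many of the genes share a promoter element that is bound by transcription factors of the TFEB family. In atherosclerotic plaque, macrophages that engulf lipoproteins become foam cells with large amounts of lysosomal protein, and loss of single enzymes causes lysosomal storage diseases. Because the tissue was measured whole, fewer macrophages and less lysosomal RNA per macrophage cannot be told apart.

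Values are log2 signals, on which 1 unit is a factor of 2. The array medians lay between 3.63 and 3.78, and 27.3 to 35.9% of gene-level probe sets exceeded the background of their own array. Smooth muscle genes, the defining markers of the labelled tissue, were bright on every array, with a mean of 15.82 to 17.2 over 6 genes. Sympathetic neuron genes were strong on 5 arrays, which were replicate 3 of Nor 8W, both 3 and 5 of CIH 8W, and both 3 and 4 of Nor 12W. Dbh, which encodes an enzyme of noradrenaline synthesis, reached 16.35 on Nor 8W replicate 3 against 3.8 to 4.35 in CIH 12W and CIH 8W + Nor 4W. Results that rest on these arrays are given with and without them.

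Lysosomal genes fell into a large set that tracked Cd68 from array to array and a smaller set that did not. Cd68 itself was 13.12, 13.23, 10.61, 14.46 and 15.13 in Nor 8W and 13.15, 16.36, 16.77, 14.01 and 15.26 in CIH 8W. It ran from 13.88 to 15.31 in Nor 12W, from 13.96 to 14.98 in CIH 12W and from 13.09 to 14.78 in CIH 8W + Nor 4W. The extremes were thus Nor 8W replicate 3 at the bottom and CIH 8W replicates 2 and 3 at the top, both in the groups of 8 weeks. Over the 23 arrays, Pearson's r with Cd68 was 0.7 or more for 27 of the 40 genes, which were taken to follow it. For 4 genes r lay between 0.5 and 0.7, and for 9 it was under 0.5. Among all 65956 gene-level probe sets 2.07% had r of 0.7 or more, and among the 13116 genes above background 6.5% did, against 67.5% of the lysosomal genes.

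**Figure D1:**
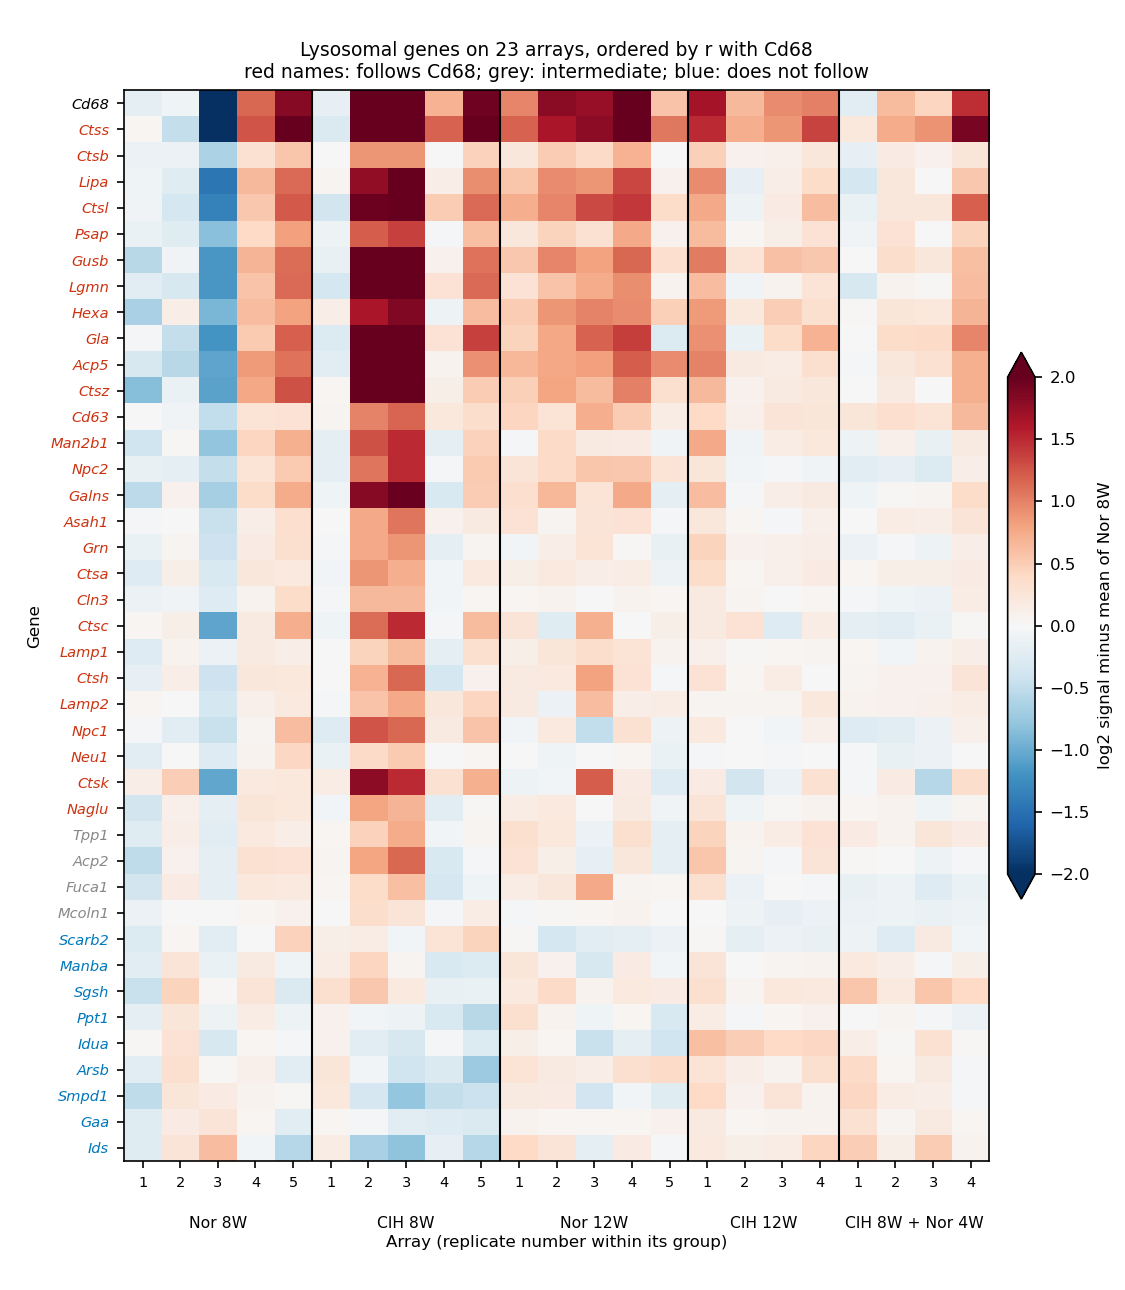
Log2 signal of Cd68 and 40 lysosomal genes on 23 arrays, as the difference from the mean of Nor 8W (colour, cut off at 2 in either direction), with arrays in columns by group and genes in rows ordered by r with Cd68. The rows from Ctss down to Naglu are mostly darkest red on CIH 8W replicates 2 and 3 and bluest on Nor 8W replicate 3, and the 9 rows from Scarb2 down do not share that pattern.

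The 5 closest followers were Ctss (r = 0.98), a cysteine protease of antigen-presenting cells, Ctsb (0.97) and Ctsl (0.96), general cysteine cathepsins, Lipa (0.97), the acid lipase that hydrolyses cholesteryl esters, and Psap (0.96), the precursor of the saposins. Their Spearman's rho was between 0.95 and 0.97. Since r with Cd68 formed the classes, the values of the followers are a description with no test. Of the 27 followers 24 also had rho of 0.7 or more, and Ctsk (0.63), Lamp2 (0.63) and Ctsc (0.61) did not. Between deviations from the group means, pooled over all groups, the followers kept r from 0.72 upwards. The SD of Cd68 was 1.73 in Nor 8W and 1.53 in CIH 8W, against 0.43 to 0.7 in the other groups. The arrays of 8 weeks therefore weigh most in this r, which was not computed for each group alone. When the lowest and the highest array for Cd68 were dropped (Nor 8W replicate 3 and CIH 8W replicate 3, the 2 farthest from its median), 22 of the 27 had r of 0.7 or more and Ctsk was lowest at 0.58. Without CIH 8W replicates 2 and 3, 20 did, and Naglu was lowest at 0.60. Without the 5 arrays of strong neuron signal, r was below 0.7 for Ctsk (0.56), Lamp2 (0.58) and Ctsc (0.64). Neu1 then lay at the limit, and the other followers had r of 0.74 or more. Against the mean of 6 other macrophage genes (Adgre1, Csf1r, Itgam, Fcgr1, Tyrobp, Mpeg1), r of the followers was 0.79 to 0.97.

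The followers differed in how steeply they moved. Ctss gained 1.05 log2 units for each unit of Cd68, Gla 0.69, Ctsl 0.63, Gusb and Acp5 0.62 and Lipa 0.61. At the other end Neu1 gained 0.12, Lamp1 0.13, Cln3 0.14 and Lamp2 0.15, and the median of the 27 slopes was 0.34. A gentle slope did not mean a loose relation: Ctsb had a slope of 0.27 and r of 0.97. Just inside the limit lay Naglu (r = 0.75) and Ctsk (0.75), and just outside it Tpp1 (0.68) and Acp2 (0.67).

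**Figure D2:**
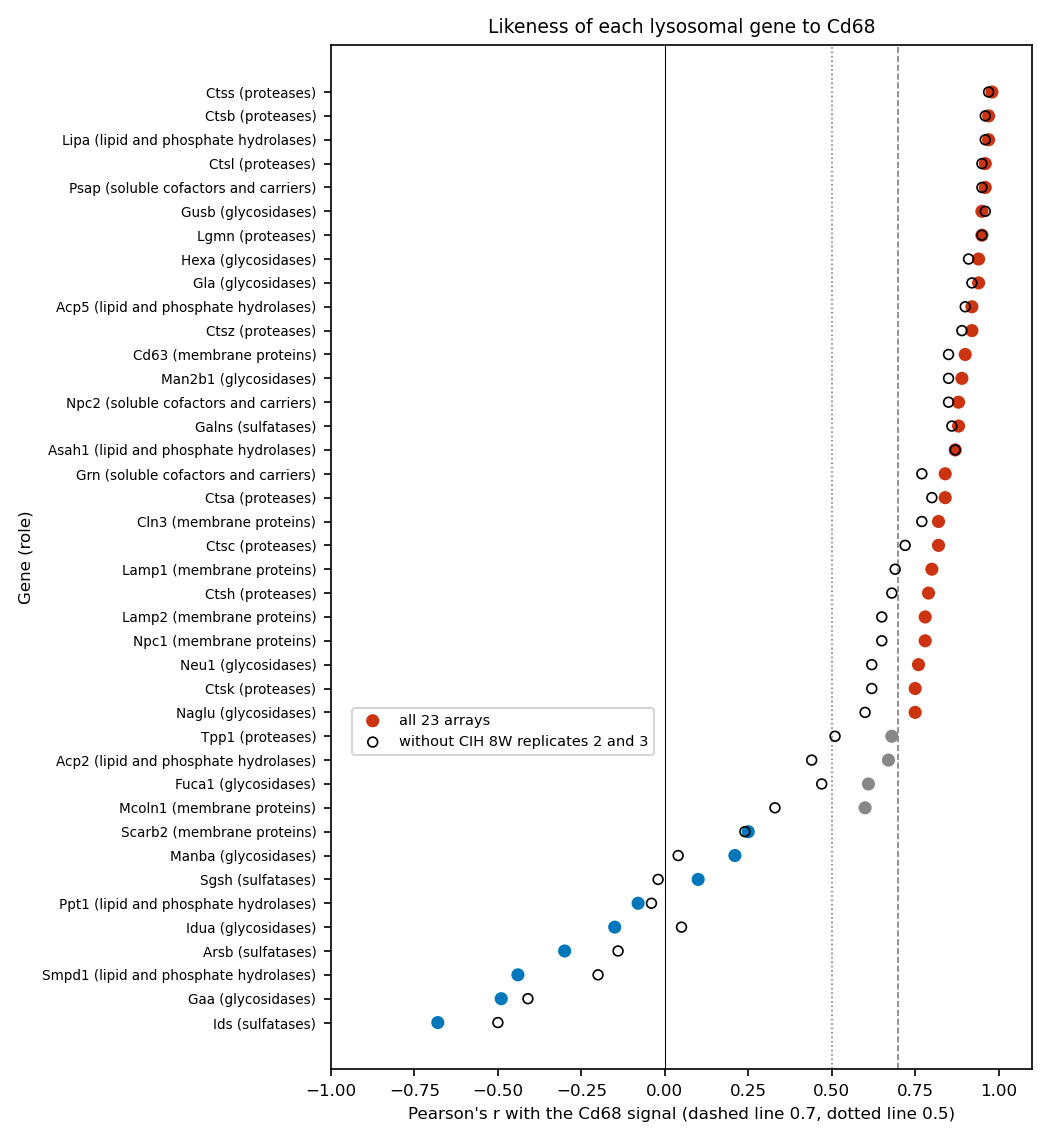
Pearson's r of each of the 40 genes with Cd68 (horizontal axis, no unit) over all 23 arrays (filled points, red for followers, grey for intermediate, blue for the rest) and without CIH 8W replicates 2 and 3 (open circles), genes with their role on the vertical axis. The order runs from Ctss at 0.98 to Ids at -0.68, and without the 2 arrays every gene from Lamp1 down to Mcoln1 moves to a lower r.

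By role, the split was uneven. Of the 10 proteases 9 followed Cd68 (Ctss, Ctsb, Ctsl, Lgmn, Ctsz, Ctsa, Ctsc, Ctsh and Ctsk) and Tpp1, a tripeptidyl peptidase, was intermediate. All 3 soluble cofactors and carriers followed: Psap, the cholesterol carrier Npc2 and progranulin (Grn). So did 5 of 7 membrane proteins, the tetraspanin Cd63 (0.90), Cln3 (0.82), the coat proteins Lamp1 (0.80) and Lamp2 (0.78) and the cholesterol exporter Npc1 (0.78). The calcium channel Mcoln1 (0.60) was intermediate and Scarb2 (0.25), the receptor that carries glucocerebrosidase, did not follow.

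Glycosidases, sulfatases and the lipid and phosphate hydrolases were each divided. Of 10 glycosidases 6 followed, namely Gusb (0.95, beta-glucuronidase), Hexa (0.94), Gla (0.94, alpha-galactosidase A), Man2b1 (0.89), Neu1 (0.76) and Naglu (0.75). Fuca1, an alpha-fucosidase, stood at 0.61, while Manba (0.21), Idua (-0.15) and Gaa (-0.49), the acid alpha-glucosidase of glycogen, did not follow. Only Galns (0.88) among the 4 sulfatases followed, and Sgsh (0.10), Arsb (-0.30) and Ids (-0.68) did not. Idua and Ids take the first steps in the breakdown of dermatan and heparan sulfate, and neither followed Cd68. Of the 6 lipid and phosphate hydrolases, Lipa, Acp5 (0.92, tartrate-resistant acid phosphatase) and the ceramidase Asah1 (0.87) followed, Acp2 was intermediate, and the palmitoyl thioesterase Ppt1 (-0.08) and the sphingomyelinase Smpd1 (-0.44) did not.

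Ids was the gene most opposed to Cd68. It was 12.97, 13.48, 13.83, 13.16 and 12.65 in Nor 8W and 13.37, 12.57, 12.41, 13.06 and 12.65 in CIH 8W, highest on the array with the lowest Cd68 and lowest on the array with the highest. Its r had a permutation p of 0.0003 (adjusted p 0.0125 over all probe sets), its rho of -0.53 a permutation p of 0.00968 (adjusted p 0.145), and r was -0.80 within groups and -0.52 without the 2 farthest arrays. An r of -0.5 or lower was found for 4.03% of all probe sets. The negative r of Gaa, Smpd1 and Arsb had adjusted p-values of 0.172, 0.251 and 0.517. The same r formed the classes and picked out Ids as the lowest gene of the list. These p-values are therefore a description with no test, as for the followers, and r within groups was not tested.

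**Figure D3:**
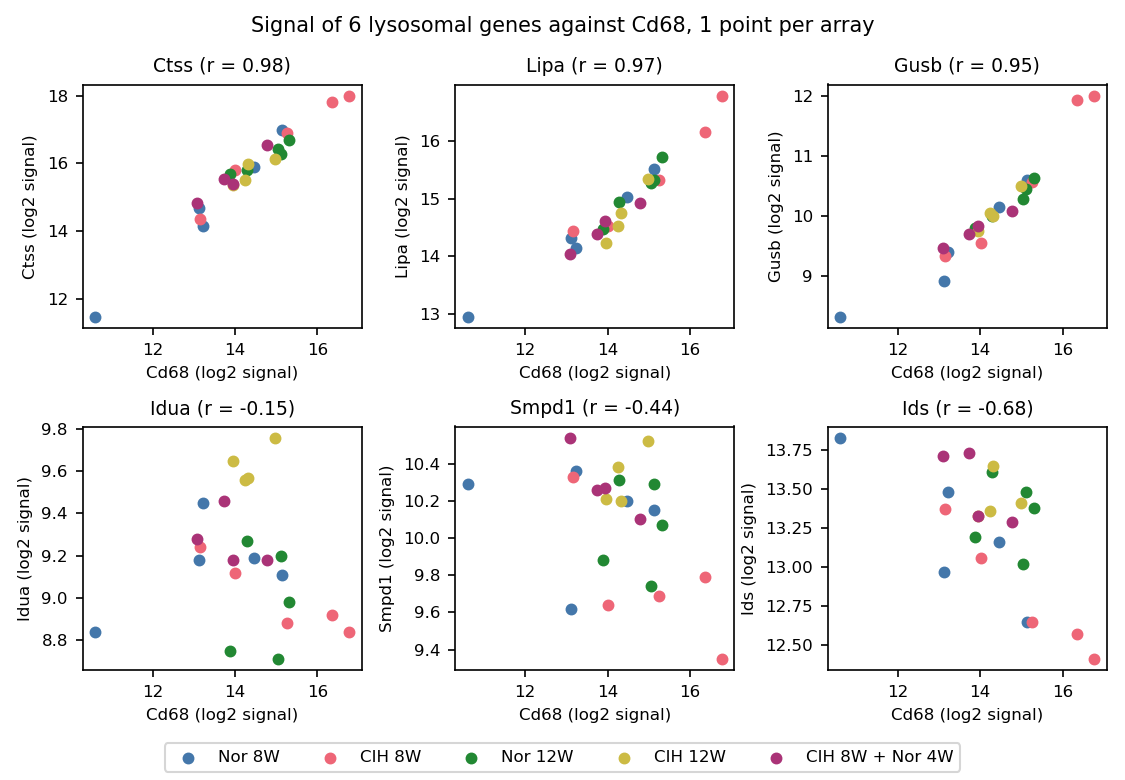
Log2 signal of Ctss, Lipa, Gusb, Idua, Smpd1 and Ids (vertical axes) against the log2 signal of Cd68 (horizontal axes), 1 point per array, coloured by group. The 3 upper genes lie along a line through all 5 groups (r 0.95 to 0.98), while CIH 12W stands above the other groups for Idua at the same Cd68.

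Promoters were taken from RefSeq (GRCm38.p6, 250 bases before to 50 after an annotated start), which held 37 of the 42 genes with 43 promoters. Asah1, Ctsb, Ctsh, Galns and Npc1 had no entry. Searched on both strands were the E-box core CACGTG, its 8-base extension GTCACGTG from the element that TFEB binds (each match of which also holds CACGTG), and GAGGAAGT, a motif of the myeloid factor PU.1. GTCACGTG was found in 6 of 22 followers (Ctsa, Cln3, Gla, Lamp1, Lgmn, Naglu), in Mcoln1 among 4 intermediate genes, in Sgsh among 9 genes that did not follow, and in Ctsd and Glb1, which makes 10 of 37 genes against 2.55% of the 27025 genes in the table. CACGTG was in 12 of 37 genes against 8.09% of all. GAGGAAGT was in 4 followers (Ctss, Gusb, Gla, Ctsc) and in no other gene of the list, against 3.69% of all genes. A gene was counted if any of its promoters held the motif, in the list and among all genes. Ctsa, Cln3 and Lgmn each had a further promoter with none of the motifs. A match is a description of letters in this window and not a bound site.

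Printed below are 4 followers chosen for the motifs they hold and 2 genes that did not follow, Sgsh with the same 8 bases as Lgmn and Idua with none of the 3 motifs. Of the promoters of Lgmn the one with a match is printed, and that at chr12:102439679-102439978 had none. Capitals mark motif matches on either strand, so GAGGAAGT on the other strand reads ACTTCCTC here.
Ctss, chr3:95526536-95526835, plus strand: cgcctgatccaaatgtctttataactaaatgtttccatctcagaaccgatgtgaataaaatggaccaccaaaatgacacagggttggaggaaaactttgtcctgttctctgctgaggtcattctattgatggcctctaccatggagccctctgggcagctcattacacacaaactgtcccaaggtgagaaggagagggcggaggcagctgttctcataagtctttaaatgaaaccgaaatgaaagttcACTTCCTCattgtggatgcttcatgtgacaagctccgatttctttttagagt
Ctsc, chr7:88277835-88278134, plus strand: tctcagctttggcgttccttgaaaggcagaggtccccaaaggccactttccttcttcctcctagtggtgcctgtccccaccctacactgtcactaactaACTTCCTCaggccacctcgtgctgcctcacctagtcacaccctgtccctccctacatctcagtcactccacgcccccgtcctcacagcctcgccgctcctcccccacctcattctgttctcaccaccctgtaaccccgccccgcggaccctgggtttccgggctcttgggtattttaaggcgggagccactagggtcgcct
Gla, chrX:134600956-134601255, minus strand: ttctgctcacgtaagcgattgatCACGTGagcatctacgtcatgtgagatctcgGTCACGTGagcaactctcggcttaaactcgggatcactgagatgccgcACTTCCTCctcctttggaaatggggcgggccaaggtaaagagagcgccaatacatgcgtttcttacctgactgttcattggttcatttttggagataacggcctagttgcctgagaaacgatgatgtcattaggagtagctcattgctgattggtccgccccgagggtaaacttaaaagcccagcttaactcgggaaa
Lgmn, chr12:102439043-102439342, minus strand: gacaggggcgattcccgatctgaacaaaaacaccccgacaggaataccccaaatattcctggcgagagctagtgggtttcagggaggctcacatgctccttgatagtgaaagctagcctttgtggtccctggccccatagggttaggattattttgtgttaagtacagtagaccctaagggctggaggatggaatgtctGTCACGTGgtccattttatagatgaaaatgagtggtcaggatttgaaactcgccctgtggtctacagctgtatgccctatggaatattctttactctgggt
Sgsh, chr11:119355461-119355760, minus strand: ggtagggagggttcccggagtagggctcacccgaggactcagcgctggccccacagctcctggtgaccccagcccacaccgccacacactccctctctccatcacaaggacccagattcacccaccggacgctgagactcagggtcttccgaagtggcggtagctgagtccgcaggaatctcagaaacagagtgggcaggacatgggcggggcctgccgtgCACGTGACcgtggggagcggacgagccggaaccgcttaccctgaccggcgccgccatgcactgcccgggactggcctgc
Idua, chr5:108660081-108660380, plus strand: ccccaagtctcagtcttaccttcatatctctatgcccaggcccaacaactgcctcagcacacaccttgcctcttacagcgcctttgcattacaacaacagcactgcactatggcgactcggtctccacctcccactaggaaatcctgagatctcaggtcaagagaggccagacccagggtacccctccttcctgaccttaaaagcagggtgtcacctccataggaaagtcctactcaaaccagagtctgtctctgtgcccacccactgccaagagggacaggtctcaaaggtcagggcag

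The first comparison asked what 8 weeks of CIH did. In CIH 8W, 21 of the 40 lysosomal genes were higher than in Nor 8W and 1 was lower, at the study's thresholds of an unadjusted p under 0.05 (limma) and a fold change over 1.1. The proteases, the cholesterol-handling genes and a few glycosidases made up most of the list, and 20 of the 21 belong to the 27 followers of Cd68, which was itself higher by 1.8 (SE 0.70, adjusted p 0.696). Of all probe sets 3.99% were called higher and 2.47% lower, and 8.12% of those above background were higher. After adjustment over all probe sets no lysosomal gene passed, and no probe set did (lowest adjusted p 0.696, with 4651 probe sets at an unadjusted p under 0.05). The median difference was 0.57 over the followers, 0.19 over the intermediate genes and -0.16 over the rest, against 0.02 over all genes above background. The classes were formed on the same arrays, so these medians are not independent of the split.

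Among proteases 8 of 10 were higher, with a median difference of 0.75. Ctss was 14.68, 14.16, 11.46, 15.89 and 16.98 in Nor 8W and 14.34, 17.81, 18, 15.81 and 16.88 in CIH 8W, a difference of 1.93 (SE 0.76, adjusted p 0.696 with limma). The groups overlapped, and the mean difference rested on CIH 8W replicates 2 and 3 and on the low Nor 8W replicate 3. Lgmn, an asparagine-specific protease, was 13.95, 13.84, 13.0, 14.74 and 15.3 in Nor 8W and 13.82, 16.34, 16.56, 14.45 and 15.3 in CIH 8W, higher by 1.13 (SE 0.44). Ctsl was higher by 1.12 (SE 0.46), from a mean of 15.5 ± 0.97 (SD, n = 5) to 16.63 ± 1.09 (n = 5), and Ctsz by 1.00 (SE 0.44), from 12.29 ± 1.01 to 13.3 ± 1.09. Ctsk, a collagenolytic cathepsin known from osteoclasts, was higher by 0.88 (SE 0.34), from 9.92 ± 0.60 to 10.81 ± 0.73. The dipeptidyl peptidase Ctsc differed by 0.62 (SE 0.30), Ctsb by 0.44 (SE 0.20) and Ctsa, which also protects neuraminidase, by 0.34 (SE 0.15). Ctsh (0.32, SE 0.21) and Tpp1 (0.25, SE 0.14) were not called.

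The glycosidases called were Gla, Gusb and Hexa, 3 of 10. Gla was 9.55, 9.12, 8.39, 10.11 and 10.78 in Nor 8W and 9.32, 11.97, 12.6, 9.88 and 10.96 in CIH 8W, higher by 1.36 (SE 0.52). Gusb was 8.92, 9.4, 8.32, 10.15 and 10.6 against 9.33, 11.94, 12.01, 9.56 and 10.57, higher by 1.20 (SE 0.46). On both genes CIH 8W replicates 2 and 3 stood above all other arrays, while replicates 1, 4 and 5 lay within the range of Nor 8W, apart from replicate 5 just above it for Gla. Hexa, whose loss causes Tay-Sachs disease in people, was higher by 0.82 (SE 0.35), from 12.64 ± 0.76 to 13.47 ± 0.88. The 7 others differed by -0.16 (Gaa) to 0.57 (Man2b1), and none was called. Of the sulfatases only Galns was called, higher by 0.78 (SE 0.37), from 7.05 ± 0.59 to 7.83 ± 1.06, and Ids, at -0.40 (SE 0.20), was not called.

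Genes of lipid breakdown moved in both directions. Lipa was 14.31, 14.14, 12.94, 15.04 and 15.52 in Nor 8W and 14.44, 16.17, 16.8, 14.52 and 15.32 in CIH 8W, higher by 1.06 (SE 0.45). Acp5 was higher by 1.16 (SE 0.48), from 9.59 ± 0.93 to 10.75 ± 1.32, and Asah1 by 0.42 (SE 0.17), from 12.13 ± 0.29 to 12.55 ± 0.47. Smpd1, which splits sphingomyelin into ceramide, was the only gene of the list called lower. It was 9.62, 10.36, 10.29, 10.2 and 10.15 in Nor 8W and 10.33, 9.79, 9.35, 9.64 and 9.69 in CIH 8W, so 4 arrays of CIH 8W lay below 4 of Nor 8W and the remaining array of each group lay on the other side. The difference was -0.36 (SE 0.16, adjusted p 0.699).

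Of the carriers, Psap was higher by 0.61 (SE 0.29), from 17.38 ± 0.63 to 17.99 ± 0.68, and Npc2 by 0.57 (SE 0.24), from 8.04 ± 0.40 to 8.61 ± 0.72. Grn differed by 0.29 (SE 0.18) and was not called. The smallest p-values of the whole list were those of 2 membrane proteins, Lamp2 and Cd63. Lamp2 was 16.02, 15.99, 15.63, 16.07 and 16.17 in Nor 8W and 15.95, 16.55, 16.73, 16.2 and 16.41 in CIH 8W, higher by 0.39 (SE 0.13), with 4 arrays of CIH 8W above all of Nor 8W. Cd63 was 14.48, 14.41, 13.98, 14.75 and 14.77 against 14.53, 15.47, 15.64, 14.69 and 14.83, higher by 0.55 (SE 0.19). Npc1, which moves cholesterol out of the lysosome together with Npc2, was higher by 0.57 (SE 0.23), from 9.74 ± 0.40 to 10.31 ± 0.64. The intermediate gene Mcoln1 was higher by 0.14 (SE 0.06). Lamp1 (0.24, SE 0.12), Cln3 (0.25, SE 0.13) and Scarb2 (0.19, SE 0.12) were not called.

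**Figure D4:**
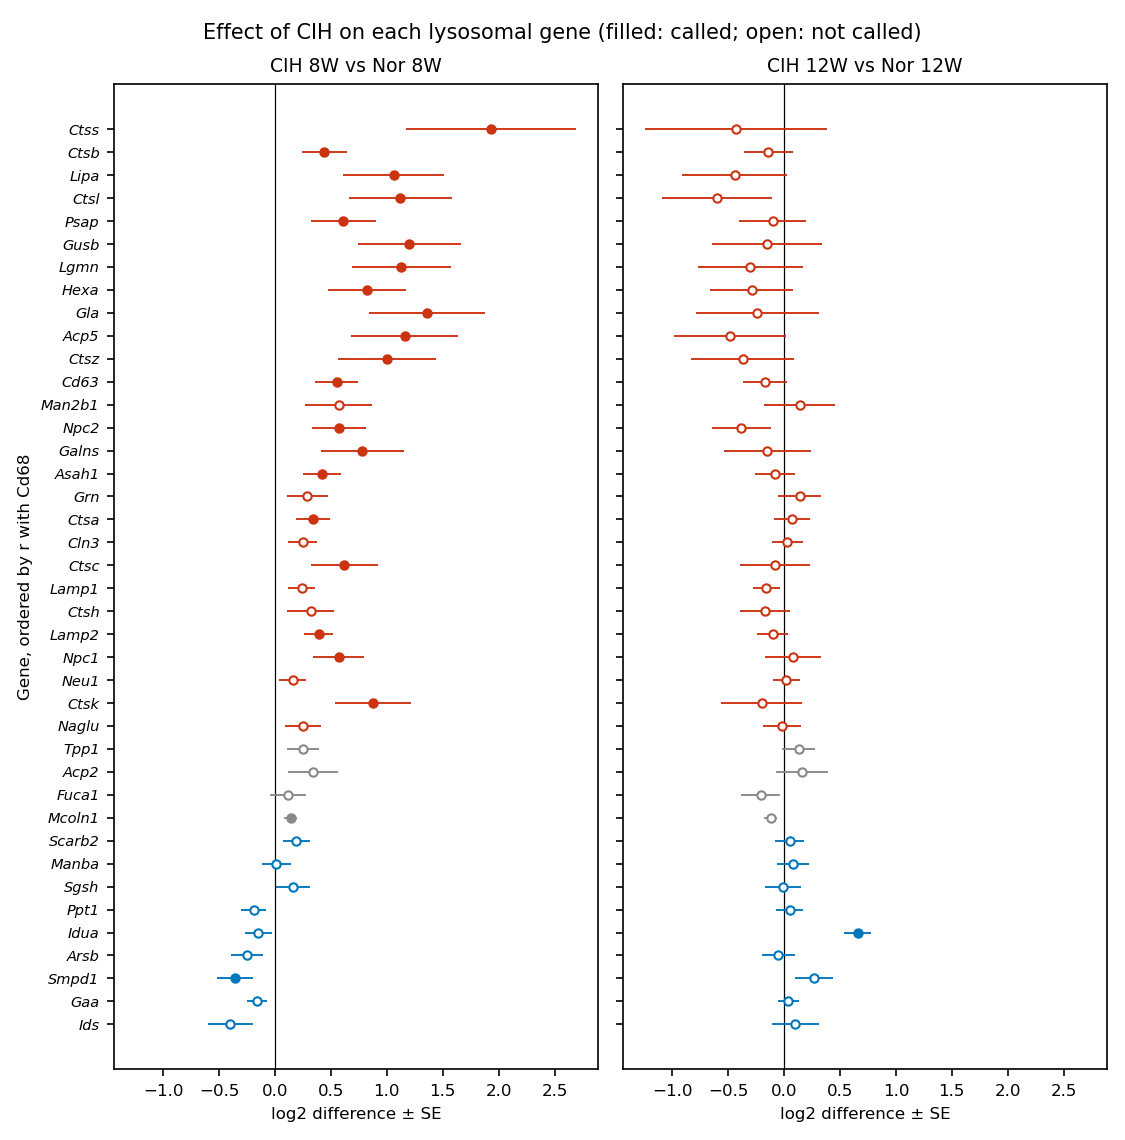
Log2 difference with its SE (horizontal axes) of each of the 40 genes in CIH 8W vs. Nor 8W (left, 5 and 5 arrays) and CIH 12W vs. Nor 12W (right, 4 and 5 arrays), genes ordered by r with Cd68, red for followers, grey for intermediate, blue for the rest, filled where called. On the left all 27 followers lie right of 0 and 20 are filled; on the right only Idua is filled.

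The calls at 8 weeks rested on few arrays. CIH 8W replicate 3 was the highest of all 23 arrays for 21 of the 27 followers and replicate 2 for the other 6, and Nor 8W replicate 3 was the lowest for 24. No lysosomal gene had groups that did not overlap, where 0.5% of all probe sets had. Leaving out Nor 8W replicate 3 took the number called from 22 to 2 (Lamp2 and Cd63). It was 3 when CIH 8W replicate 2 was dropped, 3 when replicate 3 was, 0 when both were, and 11 after dropping Nor 8W replicate 2. It was 0 without the 5 arrays of strong sympathetic neuron signal. A fit of the 2 groups alone called 3 (Ctsk, Lamp2, Cd63).

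Markers of several cell types moved with these genes. Of 11 macrophage markers 7 were higher in CIH 8W and none was lower, and their mean signal ran from 8.13 to 11.32 in Nor 8W and from 9.58 to 12.63 in CIH 8W, with 10 of the 11 above background. Of 5 markers of foamy macrophages 3 were higher, with ranges of 8.45 to 11.43 and 10.24 to 12.73. Acp5 and Ctsk are also osteoclast genes. Of 6 osteoclast markers 2 were above background and 1 of these, Atp6v0d2, was called higher (2.16, SE 1.02), while Dcstamp, Ocstamp, Oscar and Calcr were not above background, and the mean of the list ran from 4.61 to 5.99 and from 5.42 to 6.21. Smooth muscle genes ran from 16.88 to 17.13 in Nor 8W and from 15.82 to 17.13 in CIH 8W, with 1 of 6 called lower. Of 5 endothelial genes 3 were higher, with a mean of 10.28 to 11.08 in Nor 8W and 10.79 to 12.01 in CIH 8W. Of the fibroblast genes 1 of 3 was higher, and of the T cell genes 1 of 4, with only 1 of these 4 above background. The part of these lists in the result was not tested. With the Cd68 signal as a covariate in the fit, none of the 40 genes was called, against 1.23% of all probe sets higher and 1.49% lower. The median difference of the list went from 0.37 to -0.01. This fit cannot test the part of macrophages, because most of the genes were classed as followers of Cd68 on these same arrays.

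The comparison at 12 weeks asked the same of longer exposure. In CIH 12W vs. Nor 12W, 1 of the 40 genes was called, Idua, which was higher, and none was lower, where 4.29% of all probe sets were higher and 6.99% lower. All 27 followers were within the thresholds, with differences from -0.60 (Ctsl, SE 0.49) to 0.14 and a median of -0.15. Idua (alpha-L-iduronidase) removes iduronic acid from dermatan and heparan sulfate. It was 9.27, 9.2, 8.71, 8.98 and 8.75 in Nor 12W and 9.76, 9.65, 9.56 and 9.57 in CIH 12W. Every array of CIH 12W lay above every array of Nor 12W, which held for 1.85% of all probe sets. The difference was 0.66 (SE 0.12, adjusted p 0.011 with limma), in a comparison where 0.89% of all probe sets had an adjusted p under 0.05. Under 19 alternative settings the difference was 0.57 to 0.73 and always called, with an adjusted p from 0.0102 to 0.0771. It exceeded 0.05 in the fit of the 2 groups alone (0.0771) and without the 5 arrays of strong neuron signal (0.0606).

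Idua lies at chr5:108660331-108685446 (GRCm38.p6), and Slc26a1, a sulfate transporter gene at chr5:108669878-108678380, lies within that span. Slc26a1 has a probe set of its own and was not called in this comparison (difference 0, SE 0.05, adjusted p 0.988). The smooth muscle list had 2 of 6 genes higher in CIH 12W, and its mean signal was 16.03 to 16.95 in Nor 12W and 17.09 to 17.16 in CIH 12W. Brown adipocyte genes were lower for all 3 markers, with ranges of 9.05 to 13.25 and 7.24 to 9.66, and the neuron signal ran from 4.64 to 13.55 and from 4.51 to 4.84. The part of these lists in the Idua result was not tested. With the Cd68 signal as a covariate Idua differed by 0.66 (adjusted p 0.0158). This fit cannot test the part of macrophages, because Idua was classed as not following Cd68 on these same arrays.

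Npc2 also had groups that did not overlap at 12 weeks, in the opposite direction, where 2.94% of all probe sets did so. The nearest arrays, at 8.29 and 8.3, all but touched. It was 8.3, 8.43, 8.59, 8.58 and 8.32 in Nor 12W and 8.29, 7.98, 8.01 and 7.97 in CIH 12W. The difference was -0.38 (SE 0.26, adjusted p 0.598) and was not called in the model of all 5 groups, which share 1 estimate of the spread, and Npc2 ran from 7.56 to 9.53 in the groups of 8 weeks. The fit of the 2 groups alone called 6 genes, 1 higher and 5 lower, and without CIH 12W replicate 1 the model of all groups called 2.

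Return to normoxia was the third question. Between CIH 12W and CIH 8W + Nor 4W, 2.43% of probe sets were higher and 3.9% lower, and Idua was again the only lysosomal gene called. It was 9.28, 9.18, 9.46 and 9.18 in CIH 8W + Nor 4W, all below the 4 arrays of CIH 12W (2.19% of all probe sets separated that way), with a difference of 0.36 (SE 0.13, adjusted p 0.563 with limma). Both comparisons use the same CIH 12W arrays. In CIH 8W + Nor 4W vs. Nor 12W, where 4.14% of probe sets were higher and 5.23% lower, Idua was higher by 0.29 (SE 0.12, adjusted p 0.414) and Fuca1 was lower, with a difference of -0.41 (SE 0.17, adjusted p 0.428). Fuca1 was 10.41, 10.46, 10.3 and 10.43 after return to normoxia and 10.71, 10.79, 11.32, 10.62 and 10.6 in Nor 12W, with no overlap. Npc2 and Mcoln1 also lay below all arrays of Nor 12W and were not called, which makes 3 of 40 genes against 2.4% of all probe sets. Neither Idua nor Fuca1 was called once replicate 3 of Nor 12W or of CIH 8W + Nor 4W was left out, and leaving out replicate 5 of Nor 12W gave 1 call. Idua ran, by group mean, from 8.98 ± 0.25 in Nor 12W (n = 5) and 9.0 ± 0.17 in CIH 8W (n = 5) over 9.15 ± 0.22 in Nor 8W (n = 5) and 9.28 ± 0.13 in CIH 8W + Nor 4W (n = 4) to 9.64 ± 0.09 in CIH 12W (n = 4). Of these neighbours, CIH 12W stood apart from CIH 8W + Nor 4W, and the ranges of the other 4 groups overlapped.

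**Figure D5:**
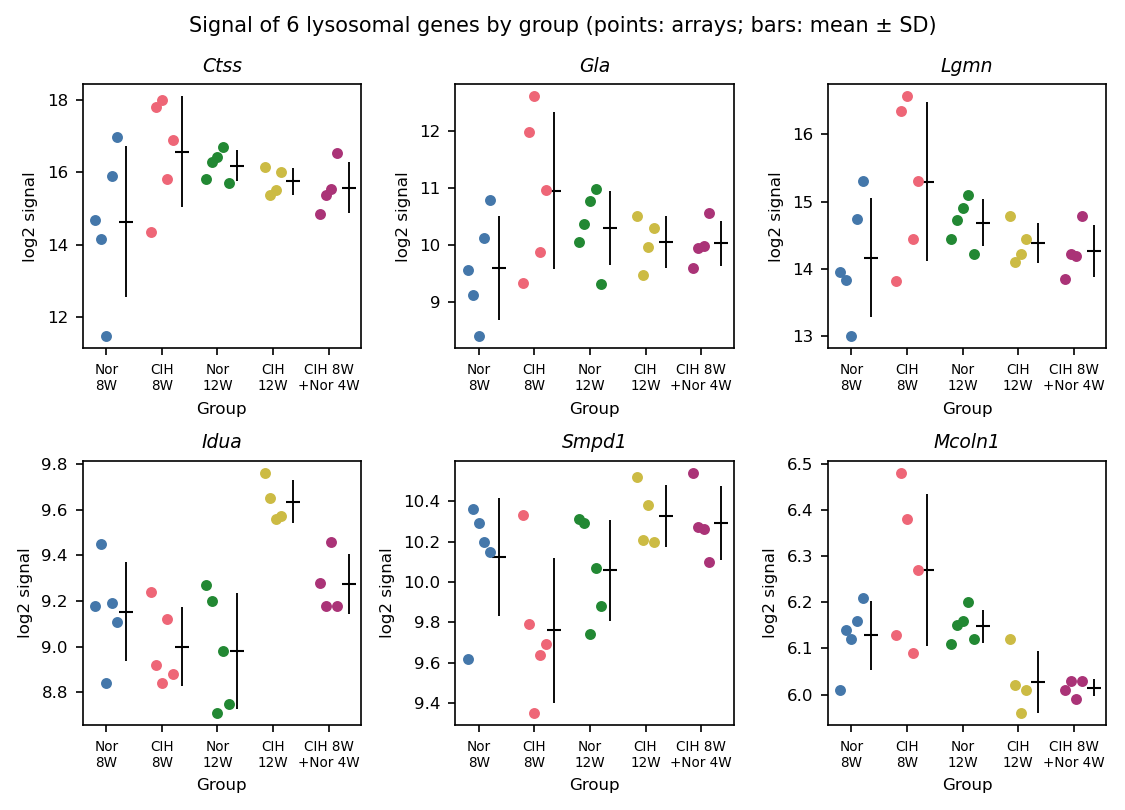
Log2 signal by group of Ctss, Gla, Lgmn, Idua, Smpd1 and Mcoln1 (points: arrays; bars: mean ± SD, n = 4 or 5). The groups of 8 weeks have the widest spread for the 3 followers in the upper row, the 4 arrays of CIH 12W are the highest of all for Idua, and the means of Mcoln1 are lowest in CIH 12W and CIH 8W + Nor 4W.

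The groups in normoxia were compared next. Nor 12W and Nor 8W differ both in age and in time on high-fat feed, so the 2 cannot be told apart. In Nor 12W vs. Nor 8W, 4.21% of probe sets were higher and 3.11% lower, and among the lysosomal genes Cd63 (0.42, SE 0.19) and Hexa (0.76, SE 0.35) were higher with adjusted p-values of 0.589 and 0.604. No lysosomal gene had groups that did not overlap, where 1.38% of all probe sets had such groups. Of the 27 followers 25 had a difference above 0 (median 0.36), among them Ctss (1.55, SE 0.76), Ctsl (0.96, SE 0.46) and Acp5 (0.88, SE 0.48), which were not called. Cd68 differed by 1.42 (SE 0.70) without a call. Of 5 foamy macrophage markers 2 were higher (median 1.03), of 11 macrophage markers none was called (median 0.73), 1 of 6 smooth muscle and 1 of 5 endothelial genes were lower, and 1 of 3 fibroblast genes was higher. The part of these markers in the differences was not tested. Leaving out 1 array gave 0 calls for Nor 8W replicate 1 and for Nor 12W replicates 3 and 4, 1 call for Nor 8W replicate 3 and for Nor 12W replicate 2, 6 for Nor 8W replicate 4 and 10 for Nor 8W replicate 5.

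Against CIH 8W, the CIH 12W and CIH 8W + Nor 4W groups had the same 5 genes higher and shared 4 lower ones. In CIH 12W vs. CIH 8W, 5 genes were higher and 5 lower, where 5.21% of probe sets were higher, 7.19% lower and 1.04% had an adjusted p under 0.05. In CIH 8W + Nor 4W vs. CIH 8W, 5 were higher and 7 lower, where the shares were 5.1% and 6.78%. These comparisons share the CIH 8W arrays. Both later groups were also older and longer on high-fat feed than CIH 8W, so exposure, age and time on feed cannot be told apart. The higher genes were Idua, Smpd1, Arsb, Ids and Gaa, all from the 9 that did not follow Cd68. The classes were formed on arrays that include these, so this is not independent of the split. The shared lower genes were Mcoln1, Ctsk, Npc2 and Lamp2, joined by Scarb2 in CIH 12W and by Npc1, Ctsc and Lgmn in CIH 8W + Nor 4W. With CIH 8W replicate 1 left out the counts were 20 and 25. The first was 6 once CIH 12W replicate 2 was dropped, and the second 27 once CIH 8W replicate 4 was.

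Cell type markers also differed from CIH 8W. Endothelial genes were lower for 5 of 5 in CIH 12W and for 4 of 5 in CIH 8W + Nor 4W, with a mean of 10.79 to 12.01 in CIH 8W, 10.35 to 10.81 and 10.7 to 10.88. Smooth muscle genes were higher for 3 and 2 of 6, and T cell genes lower for 2 and 3 of 4. Only 1 of the 4 T cell genes was above background, and the mean of that list was 4.2 to 5.68 in CIH 8W, near the mean background limit of 4.98. Of 11 macrophage markers none was lower in CIH 12W (median -0.73) and 4 were in CIH 8W + Nor 4W (median -1.15). Of the foamy macrophage markers 1 of 5 was lower in CIH 12W, and of the fibroblast genes 1 of 3 in CIH 8W + Nor 4W. With the Cd68 signal as a covariate the comparison of CIH 12W had 5 lysosomal genes higher and 8 lower. The shares of all probe sets were 4.62% and 6.37%. That of CIH 8W + Nor 4W had 3 lysosomal genes higher and 4 lower, against 4.01% and 4.53% of all probe sets. The part of these lists in the differences from CIH 8W was not tested.

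Idua was the only gene with an adjusted p under 0.05 here, 9.24, 8.92, 8.84, 9.12 and 8.88 in CIH 8W and higher by 0.64 in CIH 12W (SE 0.12, adjusted p 0.0117), with no overlap, as 1.58% of all probe sets had in that direction. Smpd1 was higher by 0.57 (SE 0.17) in CIH 12W, where it was 10.52, 10.21, 10.38 and 10.2, and by 0.53 (SE 0.17) in CIH 8W + Nor 4W, where it was 10.54, 10.27, 10.26 and 10.1. In CIH 8W only replicate 1, at 10.33, reached that range. Ids was higher by 0.63 (SE 0.21) and 0.70 (SE 0.21), Arsb, a sulfatase of dermatan sulfate, by 0.45 (SE 0.15) and 0.39 (SE 0.15), and Gaa by 0.25 (SE 0.09) and 0.30 (SE 0.09). Their group means were 12.81 ± 0.39, 8.94 ± 0.36 and 9.88 ± 0.15 in CIH 8W. Without CIH 8W replicates 2 and 3, Idua, Smpd1, Arsb and Gaa were still higher in CIH 12W, and Ids, Smpd1, Arsb and Gaa in CIH 8W + Nor 4W.

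Mcoln1, the calcium channel that acts in lysosome signalling, had the smallest p among the lower genes. It was 6.13, 6.48, 6.38, 6.09 and 6.27 in CIH 8W, 6.12, 6.02, 5.96 and 6.01 in CIH 12W and 6.01, 6.03, 5.99 and 6.03 in CIH 8W + Nor 4W. In CIH 8W + Nor 4W all arrays lay below all of CIH 8W (as for 1.93% of all probe sets). The difference was -0.25 (SE 0.06, adjusted p 0.0908 with limma), and in CIH 12W it was -0.24 (SE 0.06, adjusted p 0.0717). With the Cd68 signal as a covariate the differences were -0.19 and -0.20 and still called. Ctsk differed by -0.89 (SE 0.36) and -0.90 (SE 0.36), and Npc2 by -0.55 and -0.70 (SE 0.26 each).

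The effect of CIH at 12 weeks minus that at 8 weeks was tested directly. It was above 0 for 2 lysosomal genes, Idua (0.81, SE 0.17, adjusted p 0.0618 with limma) and Smpd1 (0.63, SE 0.24, adjusted p 0.35), and below 0 for 14, of which 13 were followers and the other was Mcoln1. Here too the classes were formed on the same arrays, so the number of followers is not independent of the split. Of all probe sets 4.27% were above and 6.16% below, and no probe set had an adjusted p under 0.05 (lowest 0.0559, with 6905 at an unadjusted p under 0.05). Cd68 itself had -2.15 (SE 1.02). Ctss had the largest negative value among the called genes at -2.37 (SE 1.11), then Ctsl at -1.72 (SE 0.67). Without CIH 8W replicates 2 and 3, Idua (0.73) and Mcoln1 (-0.15) were called, and without the 5 arrays of strong neuron signal only Idua (0.71). Against 16 with all arrays, the count was 7 when CIH 8W replicate 2 or 3 was left out, 8 for Nor 8W replicate 3 and for CIH 12W replicate 3, 9 for Nor 12W replicate 3 and for CIH 12W replicate 2, and 10 for Nor 8W replicate 1 and for Nor 12W replicate 4.

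Further lists of lysosomal and related genes were read for comparison, in CIH 8W vs. Nor 8W unless stated. In that comparison 3.99% of all probe sets were higher, 2.47% were lower, and 8.12% of those above background were higher. Of 16 measured subunits of the V-ATPase, the pump that acidifies lysosomes, 4 were higher and none lower (median 0.37). These were Atp6v1g1 (0.46, SE 0.19), Atp6v0e (0.36, SE 0.16), Tcirg1 (0.80, SE 0.36) and Atp6v0d2 (2.16, SE 1.02), a subunit of macrophages and osteoclasts that ran from 8.28 to 15.57 in Nor 8W and from 12.7 to 17.07 in CIH 8W. Of 6 genes for the mannose 6-phosphate tag and its receptors 2 were higher, Gnptab (0.56, SE 0.19), which makes the tag, and the receptor Igf2r (0.54, SE 0.21), and M6pr (0.32, SE 0.18) was not called. Of 12 further hydrolases and related genes 4 were higher, the galactosylceramidase Galc (1.26, SE 0.42), the lysosomal phospholipase Pla2g15 (0.64, SE 0.29), the macrophage lysozyme Lyz2 (1.23, SE 0.54) and Pla2g7 (1.82, SE 0.65), which encodes a secreted, lipoprotein-associated phospholipase and not a lysosomal enzyme. Ctsf was lower (-0.39, SE 0.17). Of 11 further membrane proteins 3 were higher, Tpcn2 (0.45, SE 0.17), Cd68 and Laptm5 (1.11, SE 0.51).

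Of 17 genes of lysosome regulation and nutrient sensing 4 were higher (median 0.13), led by Rragc (0.36, SE 0.12), Fnip2 (0.97, SE 0.35) and Lamtor3 (0.36, SE 0.13), while Tfeb, which drives lysosomal genes, differed by -0.06 (SE 0.05). Of 7 cathepsin inhibitors 2 were higher, Cst7 (0.42, SE 0.16), whose mean of 3.53 to 3.95 was below the mean background limit of 4.98, and Cstb (0.75, SE 0.34), and Cst3 differed by -0.17 (SE 0.11). Of 13 autophagy genes 1 was higher, Atg5 (0.41, SE 0.15), and Uvrag (0.12, SE 0.06) and Gabarap (0.12, SE 0.07) were not called. Among all probe sets above background 8.12% were higher. Chosen after their values were seen, 2 autophagy genes passed the adjusted threshold elsewhere. Gabarapl1 was lower in CIH 12W vs. CIH 8W (-0.62, SE 0.13, adjusted p 0.024), from 11.17 ± 0.20 to 10.55 ± 0.12, and Sqstm1, the autophagy cargo receptor, was lower in Nor 12W vs. Nor 8W (-0.46, SE 0.08, adjusted p 0.0486), from 12.21 ± 0.04 to 11.75 ± 0.12.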

How the data were processed

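Total RNA from mouse aorta was hybridised to Affymetrix Clariom D mouse arrays, 23 in 5 groups. The authors made the deposited log2 signals, which the submitters' processing notes credit to Affymetrix Expression Console and the study's methods to Transcriptome Analysis Console. The summary method is not given in the sources used here, and no scan date or batch is given. The values ran from 1.87 to 19.9 over 65956 gene-level probe sets, and 6732 control probe sets were left out. Precision is limited by the number of arrays. The brightest probe set that carries 1 symbol alone stood for each gene.

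A model of 5 group means was fitted over all gene-level probe sets with limma 3.58.1 (R 4.3.3), in which the spread is shared by all groups. The study's thresholds set the calls (fold change over 1.1, with p under 0.05 before adjustment), and adjusted p-values (Benjamini-Hochberg) cover all probe sets. P-values measure the spread between these arrays. Correlations with Cd68 (Pearson's r, Spearman's rho) were given p-values from 100000 permutations. Genes were split at r of 0.7 and 0.5, so these p-values describe the genes and do not test the split. On a single array, a probe set was above background where it exceeded the 95th percentile of 23 background probe sets of that array. For shares and marker counts over all arrays, its mean signal was set against the mean of these limits, 4.98. The fits were tested on simulated data. Members, lists, classes and tests were chosen with earlier results of these data known. Values were given for members called in any of the 3 comparisons of the study, the 5 with the highest and the 5 with the lowest r, members with an adjusted p under 0.05 in any comparison, and up to 3 genes of each other list by p in CIH 8W vs. Nor 8W; other genes were named after their values were seen. Replicate numbers were checked for pairing, which neither the labels nor the methods give, and were not used as one. Alternatives were other scalings, 2-group fits, the replicate number as a block, the Cd68 signal as a covariate, a filter on dim probe sets, other thresholds and arrays left out. Ctsd and Glb1 were left out because their probe sets carry a second symbol.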

Additional observations from a re-analysis of the deposited data

Results flagged for a closer look

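Among 200 combinations of a lysosomal gene and a group, 10 had 1 array far from the rest of its group, at a test that flags about 1 in 20 groups by chance. Lowest of their groups were Ctsa on Nor 12W replicate 5 (12.84), Ctsk on Nor 8W replicate 3 (8.88), Naglu on CIH 8W + Nor 4W replicate 3 (6.2) and Smpd1 on Nor 8W replicate 1 (9.62). Highest of their groups were Ctsh on CIH 8W + Nor 4W replicate 4 (14.49), Ctsk (11.13) and Fuca1 (11.32) on Nor 12W replicate 3, Grn (13.49) and Npc2 (8.29) on CIH 12W replicate 1, and Lamp2 on CIH 12W replicate 4 (16.19). Ctsk on Nor 8W replicate 3 and Smpd1 on Nor 8W replicate 1 enter the comparison at 8 weeks, and Npc2 on CIH 12W replicate 1 is the array of CIH 12W nearest to Nor 12W.

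The effect of CIH at 12 weeks minus that at 8 weeks was called for 16 lysosomal genes, at an unadjusted p and with no adjusted p under 0.05. Of all probe sets 4.27% were called above 0 and 6.16% below. The value was 0.81 for Idua and 0.63 for Smpd1. It was -2.37 for Ctss, -1.72 for Ctsl, -1.64 for Acp5, -1.6 for Gla, -1.51 for Lipa, -1.43 for Lgmn, -1.37 for Ctsz, -1.11 for Hexa and -1.09 for Ctsk. Smaller negative values were found for Npc2 (-0.95), Cd63 (-0.72), Lamp2 (-0.49), Lamp1 (-0.4) and Mcoln1 (-0.26).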

How the results depend on the processing

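In CIH 8W vs. Nor 8W, the 22 calls became 3 in a fit of the 2 groups alone, 13 at a fold change over 1.5, and 0 at an adjusted p under 0.05, without the 5 arrays of strong neuron signal, with the Cd68 signal as a covariate, and without CIH 8W replicates 2 and 3, an alternative chosen after seeing the data. Leaving out 1 array gave 2 to 30. With the Cd68 covariate 7 called genes changed sign, Ctsb (-0.06), Ctsc (-0.01), Ctsl (-0.02), Ctsz (-0.02), Galns (-0.04), Lipa (-0.05) and Psap (-0.09), and the other 15 kept their sign without a call.

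In CIH 12W vs. Nor 12W, the single call became 6 (1 higher, 5 lower) in the fit of 2 groups and 5 (3 higher, 2 lower) with the Cd68 covariate, and was 1 to 2 without 1 array. Between CIH 12W and CIH 8W + Nor 4W, it became 2 in the fit of 2 groups, 3 (1 higher, 2 lower) with the Cd68 covariate, and 0 at a fold over 1.5 or an adjusted p under 0.05, and stayed 1 without 1 array. In CIH 8W + Nor 4W vs. Nor 12W, 2 calls became 10 (2 higher, 8 lower) in the fit of 2 groups, 1 with quantile normalization, and 0 without the neuron arrays, at a fold over 1.5 or an adjusted p under 0.05, and 0 to 3 without 1 array. In Nor 12W vs. Nor 8W, 2 calls became 7 in the fit of 2 groups, 8 with the Cd68 covariate (2 higher, 6 lower, none of them shared with the first 2), 1 with quantile normalization or a fold over 1.5, and 0 without the neuron arrays or at an adjusted p under 0.05, and 0 to 10 without 1 array.

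In CIH 12W vs. CIH 8W, 10 calls (5 higher, 5 lower) became 5 (3 higher, 2 lower) without the neuron arrays, 13 (5 higher, 8 lower, 9 of them shared with the 10) with the Cd68 covariate, 3 at a fold over 1.5, 1 at an adjusted p under 0.05, 6 (5 higher, 1 lower) without CIH 8W replicates 2 and 3, and 6 to 20 without 1 array, and median centring and quantile normalization each gave 6 higher and 2 lower. In CIH 8W + Nor 4W vs. CIH 8W, 12 calls (5 higher, 7 lower) became 4 (2 higher, 2 lower) without the neuron arrays, 7 (3 higher, 4 lower) with the Cd68 covariate, 6 (1 higher, 5 lower) at a fold over 1.5, 0 at an adjusted p under 0.05, 7 (5 higher, 2 lower) without CIH 8W replicates 2 and 3, and 8 to 27 without 1 array. For the difference between 12 and 8 weeks, 16 calls became 8 with quantile normalization (2 higher, 6 lower), 1 higher without the neuron arrays, 2 higher with the Cd68 covariate, 0 at an adjusted p under 0.05, 2 without CIH 8W replicates 2 and 3 (1 higher, 1 lower), and 7 to 24 without 1 array.

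With the replicate number as a block (replicate block) the counts in the same order were 18, 1, 1, 2, 0, 7, 9 and 8. Deviations of arrays with the same number had a median correlation of 0.02 (from -0.32 to 0.63), against -0.02 for different numbers, and 10 of 23 arrays correlated best with an array of their own number. The correlations were not all above 0.1 and no source gives a pairing, so the numbers were not taken as one. Replicate 3 is an array of strong neuron signal in 3 groups. The 27 genes that follow Cd68 were 24 to 29 without 1 array. Of 1497 values of a named gene under an alternative, 951 kept direction and call, 539 lost the call and 7 changed sign. The cause of these changes was not tested.

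The main limits are the 4 or 5 arrays of a group, the wide spread between arrays at 8 weeks, whole tissue, and deposited values whose summary method is unknown. Genes were represented by 1 probe set each, so transcripts of a gene were not told apart, and Neu1 was above background on 17 of 23 arrays.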
